A study of Mus musculus with 12 samples.

Results

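The interferon response and antigen presentation genes were followed in cerebella of Ciz1-/- mice and matched controls. Interferon-stimulated genes, sensors of RNA and other nucleic acids, and genes that process and load peptides for antigen presentation made up a list of 39 genes. The list was defined by what the genes do, with earlier results of these data known. A gene was taken as measured when a row of the array carried its symbol and no other, and the brightest such row was used. Of the 39 genes, 36 were measured, out of 22180 genes on the array. Oas1a and Gbp2 shared their rows with a near neighbour of the same family, and Ifi44 was not matched to a row.

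Ciz1 encodes a nuclear zinc finger protein that interacts with the cell-cycle inhibitor p21 and takes part in DNA replication. RNA of whole cerebellum was hybridised to 12 Affymetrix whole-transcript arrays, 1 for each mouse, in 4 groups of 3: Ciz1-/- males, wild-type males, Ciz1-/- females and wild-type females. Age was 10 months by the protocol and 6 to 10 months by the design text. The genotype field of the controls read Ciz1+/-, their source name wild type and the protocol Ciz1+/+, so the controls are called wild type here with that conflict unresolved. The loss is carried by the whole animal, no other allele or treatment was named, and how the allele was made was not given. Replicate numbers only name an array. Values are log2 of the deposited normalised intensity, and differences are Ciz1-/- minus wild type on that scale.

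Interferons are secreted when a cell senses viral or misplaced nucleic acid. Type I interferon binds its receptor and activates Jak1 and Tyk2. A factor that holds Stat2 and Irf9 then binds the interferon-stimulated response element and switches on antiviral genes, whereas interferon-gamma acts mainly at the gamma-activated site. In healthy brain the genes are kept at a low tonic level, with microglia among the most responsive cells.

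Promoter windows were searched for short cores of these sites, to show which of the genes carry one near their start. RefSeq sequence on build GRCm38.p6, 250 bases before to 50 bases after the gene start, was at hand for 27 of the 36 genes. The core of the interferon-stimulated response element was written GAAANNGAA and searched on both strands, with overlapping matches counted separately. It was found in 8.56% of 32851 windows of all genes, and in a window of 12 of the 27 genes: B2m, Bst2, Ddx58, Eif2ak2, Gbp3, Ifih1, Ifit1, Ifit3, Isg15, Rsad2, Stat2 and Trim30a. A gamma-activated site core, written TTCNNNGAA, was found in 8.3% of all windows and in a window of Bst2, Eif2ak2, Ifit2, Irf1, Psmb8 and Samhd1. The 27 genes had 32 windows, as some had more than 1. The shares over all genes count windows, while the genes named had a match in any window, so the figures are not in the same unit. Both motifs can share bases, and Bst2 and Eif2ak2 held both. A match is a string of letters, and no match says only that these letters are not in this window.

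The windows of 4 genes are shown 5′ to 3′, with matches to the response-element core in capitals. Ifit1 and Isg15 held 3 matches each, and Oasl2 and Slfn2, which with Ifit1 had the 3 widest differences in males, held none. The windows lie at chr19:34640639-34640938 on the plus strand for Ifit1, at chr4:156200769-156201068 on the minus strand for Isg15, at chr5:114896684-114896983 on the plus strand for Oasl2 and at chr11:83064862-83065161 on the plus strand for Slfn2. The matches of Ifit1 began 109, 103 and 84 bases before the gene start and those of Isg15 78, 72 and 66 bases before it, and neighbouring matches that began 6 bases apart overlap.
Ifit1: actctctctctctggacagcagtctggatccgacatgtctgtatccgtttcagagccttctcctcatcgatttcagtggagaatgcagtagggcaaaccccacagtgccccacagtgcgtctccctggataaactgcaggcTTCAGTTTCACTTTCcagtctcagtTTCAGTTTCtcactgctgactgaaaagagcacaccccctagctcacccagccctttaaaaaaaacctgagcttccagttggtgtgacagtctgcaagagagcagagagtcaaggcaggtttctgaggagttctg
Isg15: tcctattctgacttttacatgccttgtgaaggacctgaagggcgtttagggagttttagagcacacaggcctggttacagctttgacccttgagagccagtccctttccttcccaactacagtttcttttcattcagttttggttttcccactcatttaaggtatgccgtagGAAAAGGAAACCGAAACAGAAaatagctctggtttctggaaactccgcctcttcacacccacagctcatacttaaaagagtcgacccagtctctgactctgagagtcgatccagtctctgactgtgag
Oasl2: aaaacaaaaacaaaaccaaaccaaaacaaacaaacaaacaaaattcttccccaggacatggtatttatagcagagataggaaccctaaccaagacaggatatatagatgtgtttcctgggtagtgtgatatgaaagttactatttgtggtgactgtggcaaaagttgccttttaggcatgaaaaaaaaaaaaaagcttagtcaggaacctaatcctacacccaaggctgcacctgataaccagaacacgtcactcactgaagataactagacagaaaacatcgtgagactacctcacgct
Slfn2: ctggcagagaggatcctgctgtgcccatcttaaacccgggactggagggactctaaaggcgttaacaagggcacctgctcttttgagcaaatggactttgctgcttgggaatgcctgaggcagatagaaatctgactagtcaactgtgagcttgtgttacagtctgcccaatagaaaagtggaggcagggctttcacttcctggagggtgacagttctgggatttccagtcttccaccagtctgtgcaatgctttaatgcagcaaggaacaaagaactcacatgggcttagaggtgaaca

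The targeted gene followed the labels. Ciz1 read 7.26, 6.82 and 7.10 in Ciz1-/- males against 8.73 in all 3 wild-type males, and 7.31, 7.17 and 7.09 in Ciz1-/- females against 8.90, 8.70 and 8.80 in wild-type females. The cerebellar markers Calb1 of Purkinje cells and Gabra6 of granule cells were bright in every array, at 12.25 to 12.49 and 11.71 to 12.12. Transthyretin (Ttr), a choroid plexus transcript, ran between 7.59 and 13.33. The 10 choroid plexus markers measured were all lower in Ciz1-/- mice of both sexes, with a median difference of -0.32 in each. None passed an adjusted p of 0.05 in limma. Over both sexes 1 (10%) was at an unadjusted p under 0.05, beside 9.26% of all genes. Oligodendrocyte markers were lower for 9 of 9 genes in Ciz1-/- females, with a median of -0.38. All 9 were at an unadjusted p under 0.05 in limma there and over both sexes, beside 8.49% and 9.26% of all genes. In females 1 passed an adjusted p of 0.05, beside 0.0225%. In Ciz1-/- males 8 of 9 were lower, with a median of -0.14 and 0 at an unadjusted p under 0.05, beside 5.42%. The part of oligodendrocytes in the values that follow was not tested. With the choroid plexus level as a covariate the male median of the 36 genes was 0.18, as without it.

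In males the genes lay almost all on the Ciz1-/- side. Of the 36, 35 had a higher mean in Ciz1-/- males than in wild-type males, with a median difference of 0.18 and a range of -0.02 to 0.72, while 48.1% of all 22180 genes were higher and their median was 0.00. None of the 36 passed an adjusted p of 0.05 in limma, the smallest being 0.451, beside 0.0225% of all genes called. At an unadjusted p under 0.05, 5 of the 36 were higher, beside 2.62% of all genes, and 0 were lower, beside 2.8%. In 12 of the 36 every Ciz1-/- male exceeded every wild-type male, beside 4.66% of all genes, and in 0 every one lay below, beside 5.64%. The 12 were Cmpk2, Ddx58, Gbp9, Ifit1, Ifit2, Oasl2, Parp14, Rsad2, Rtp4, Slfn2, Usp18 and Xaf1. Left out of the fit, Ciz1-/- male replicate 2 brought the count of higher genes to 29, the median to 0.115 and the count at an unadjusted p under 0.05 to 3.

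In females the balance was the other way. Means were higher in Ciz1-/- females for 13 of the 36 genes and lower for 23, with a median of -0.06 and a range of -0.42 to 0.19, while 50.6% of all genes were higher. None passed in limma, the smallest adjusted p being 0.377, beside 0.0225% of all genes. At an unadjusted p under 0.05, Gbp9 was higher, beside 4.52% of all genes, and Rtp4 and Tap2 were lower, beside 3.98%. Groups did not overlap for Gbp9 on the higher side, beside 7.46% of all genes, and for Tap2 on the lower side, beside 7.41%. The counts leaned on single arrays: 5 genes were higher without Ciz1-/- female replicate 1, with a median of -0.16, and 20 without Ciz1-/- female replicate 3, with a median of 0.01.

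**Figure D1:**
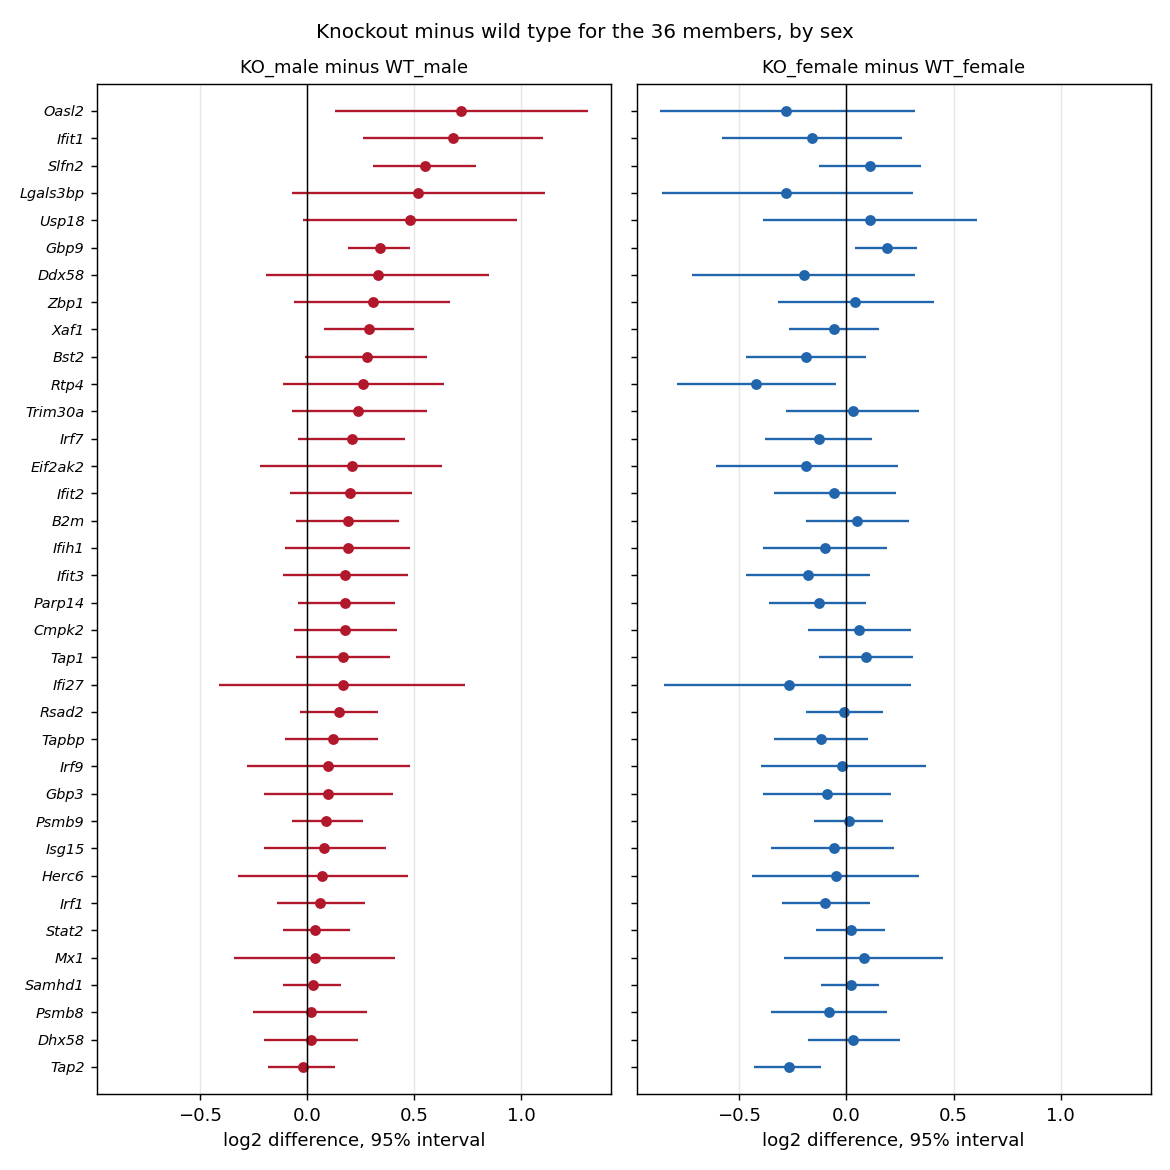
Differences of the 36 measured genes, Ciz1-/- minus wild type on the log2 scale, in males (left) and females (right); points are estimates and lines their 95% intervals, n = 3 mice a group. Points lie right of 0 for 35 genes in males and for 13 in females.

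The difference between the sexes was tested as an interaction, the female effect minus the male effect. It was negative for 34 of the 36 genes, with a median of -0.24 and a range of -1.0 to 0.04, and none passed in limma, where the smallest adjusted p was 0.99 and 0% of all genes were called. At an unadjusted p under 0.05, Bst2, Ifit1, Oasl2, Rtp4, Slfn2, Tap2 and Xaf1 were negative, 7 genes beside 2.28% of all genes, and 0 were positive, beside 2.54%. A higher mean in males together with a lower one in females was seen for 22 genes, a share that was 20.7% over all genes. Another 13 were higher in both sexes (27.4% of all genes), Tap2 was lower in both (28.7%) and 0 showed the reverse of the first pattern (23.2%). The effects of the sexes come from different mice and were not shown to differ for any single gene after adjustment.

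Averaged over the sexes, 29 of the 36 genes were higher and 7 lower, with a median of 0.04 and a range of -0.15 to 0.33, beside 49.6% of all genes higher. None passed in limma, with a smallest adjusted p of 0.154 and 0.0225% of all genes called. At an unadjusted p under 0.05, Gbp9 and Slfn2 were higher, beside 4.38% of all genes, and Tap2 was lower, beside 4.87%. Without Ciz1-/- female replicate 1 the count of higher genes was 19 and the median 0.003, and without Ciz1-/- female replicate 3 the median was 0.087.

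Among the signalling factors all 4 measured had higher means in Ciz1-/- males, with a median difference of 0.08, and 1 of 4 in Ciz1-/- females, with a median of -0.06. Stat2, which carries the activating domain of the interferon-stimulated factor, was 1 of the 3 genes with the brightest rows, though brightness also depends on a row's probes. It read 9.39, 9.40 and 9.43 in Ciz1-/- males against 9.28, 9.46 and 9.33 in wild-type males, and 9.38, 9.31 and 9.16 in Ciz1-/- females against 9.32, 9.29 and 9.19 in wild-type females. The groups overlapped in both sexes and the difference over both was 0.03 (SE 0.05). Irf7, which amplifies interferon production, differed by 0.21 (SE 0.11) in males and by -0.13 (SE 0.11) in females. Irf9, the DNA-binding partner of Stat2, differed by 0.10 in males and -0.02 in females, and Irf1, which interferon-gamma induces, by 0.06 and -0.10.

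The 5 sensors were all higher in the mean in Ciz1-/- males, with a median of 0.21, and 2 of 5 in Ciz1-/- females, with a median of -0.10. Ddx58, which encodes the RNA sensor RIG-I, read 7.50, 8.06 and 7.46 in Ciz1-/- males against 7.40, 7.32 and 7.32 in wild-type males, and 7.97, 7.27 and 6.86 in Ciz1-/- females against 7.59, 7.77 and 7.34 in wild-type females. The male groups did not overlap, but 1 Ciz1-/- male stood well above the other two and the Ciz1-/- females spread over more than a log2 unit, so that the male difference of 0.33 had an SE of 0.24. Zbp1, a sensor of Z-form nucleic acid that can start necroptosis, differed by 0.31 (SE 0.17) in males and 0.04 in females. Eif2ak2, the kinase PKR that halts translation on double-stranded RNA, differed by 0.21 and -0.19, and Ifih1, the sensor MDA5 of long double-stranded RNA, by 0.19 and -0.10. Dhx58, the RIG-I relative LGP2, differed by 0.02 in males and 0.03 in females.

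In males the antiviral effectors Oasl2 and Ifit1 had the widest differences of the 36 genes. All 9 effectors measured were higher in the mean in Ciz1-/- males, with a median of 0.18, and 3 of 9 in Ciz1-/- females, with a median of -0.06. Ifit1, which binds viral RNA that lacks a methylated cap, read 7.90, 8.16 and 7.70 in Ciz1-/- males against 7.42, 7.03 and 7.26 in wild-type males. All Ciz1-/- males were above all wild-type males, and the difference of 0.68 (SE 0.19), a fold of 1.60, had an unadjusted p of 0.00449 and an adjusted p of 0.786 in limma. In females Ifit1 read 8.04, 7.57 and 7.18 in Ciz1-/- mice against 7.60, 7.96 and 7.72 in wild type, overlapping groups with a difference of -0.16 (SE 0.19). The Ifit1 interaction was -0.84 (SE 0.27), with an adjusted p of 0.99 in limma.

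Oasl2, a member of the oligoadenylate synthetase family, read 7.84, 8.59 and 7.92 in Ciz1-/- males against 7.45, 7.34 and 7.39 in wild-type males. The wild-type males were close together and all below the Ciz1-/- males, and the difference was 0.72 (SE 0.27), a fold of 1.65, with an unadjusted p of 0.021 and an adjusted p of 0.874 in limma. It was 0.49 with an unadjusted p of 0.104 in the limma fit without Ciz1-/- male replicate 2. Ciz1-/- females read 8.35, 7.44 and 7.18 against 8.04, 8.12 and 7.64 in wild-type females, so that the Ciz1-/- females held both the highest and the lowest Oasl2 values of their sex. The difference in females was -0.28 (SE 0.27) and the interaction -1.0 (SE 0.38).

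The remaining effectors differed less. Bst2, the tetherin that holds budding virus at the cell surface, differed by 0.28 (SE 0.13) in males and -0.19 (SE 0.13) in females, and overlapped in both. Ifit2 and Ifit3, relatives of Ifit1 that act with it, differed by 0.20 and 0.18 in males and by -0.06 and -0.18 in females. Ifit1, Ifit2 and Ifit3 lie on chromosome 19. Rsad2, the enzyme viperin that makes a chain-terminating nucleotide, read 6.65, 6.65 and 6.58 in Ciz1-/- males against 6.52, 6.44 and 6.47 in wild-type males, a small difference of 0.15 (SE 0.08) between groups that did not overlap. Cmpk2, a mitochondrial nucleotide kinase, differed by 0.18 (SE 0.11) in males and 0.06 in females. Mx1, a GTPase that blocks influenza virus, differed by 0.04 in males and 0.08 in females, with SE 0.17 in each, on a dim row averaging 4.99.

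Samhd1, which breaks down deoxynucleotides, was the steadiest of the 36 genes and had 1 of the 3 brightest rows. It read 8.81, 8.90 and 8.84 in Ciz1-/- males against 8.78, 8.89 and 8.80 in wild-type males, and 8.91, 8.78 and 8.78 in Ciz1-/- females against 8.79, 8.87 and 8.77 in wild-type females. All groups overlapped and the difference over both sexes was 0.02 (SE 0.04) and a 95% interval of -0.07 to 0.12.

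Of the ISG15 pathway, in which the ubiquitin-like protein Isg15 is attached to other proteins, Usp18 stood out in size. Usp18 removes Isg15 and also damps the type I interferon receptor. It read 7.64, 8.04 and 7.48 in Ciz1-/- males against 7.31, 7.10 and 7.32 in wild-type males, without overlap, a difference of 0.48 (SE 0.23) with an unadjusted p of 0.0597 in limma. Ciz1-/- females read 8.15, 7.26 and 7.19 against 7.24, 7.67 and 7.36 in wild-type females, where 1 Ciz1-/- female held the highest value of the 12 mice and the difference was 0.11 (SE 0.23). Isg15 itself differed by 0.08 in males and -0.06 in females (SE 0.13 each), and Herc6, the mouse ligase for Isg15, by 0.07 and -0.05. The Isg15 row was dim, averaging 5.44.

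Guanylate-binding proteins are GTPases, strongly induced by interferon-gamma, that attack membranes around microbes. Gbp9 read 5.99, 6.04 and 6.13 in Ciz1-/- males against 5.73, 5.71 and 5.70 in wild-type males. In females it read 5.78, 5.72 and 5.92 in Ciz1-/- mice against 5.65, 5.54 and 5.66 in wild type. Of the 36 genes Gbp9 was the only one whose groups did not overlap in either sex, with Ciz1-/- above wild type in both. Its row was dim, averaging 5.80, while the mean of all genes was 7.03 to 7.04 an array. The difference over both sexes was 0.26 (SE 0.05), a fold of 1.20, with an unadjusted p of 0.000136 and an adjusted p of 0.154 in limma. It was 0.34 (SE 0.07) in males, with an adjusted p of 0.451, and 0.19 (SE 0.07) in females, with an adjusted p of 0.497, in the same limma fit. In females it was 0.13 without Ciz1-/- female replicate 3, with an unadjusted p of 0.0826 in limma. Gbp3 differed by 0.10 in males and -0.09 in females (SE 0.14 each) and overlapped in both.

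**Figure D2:**
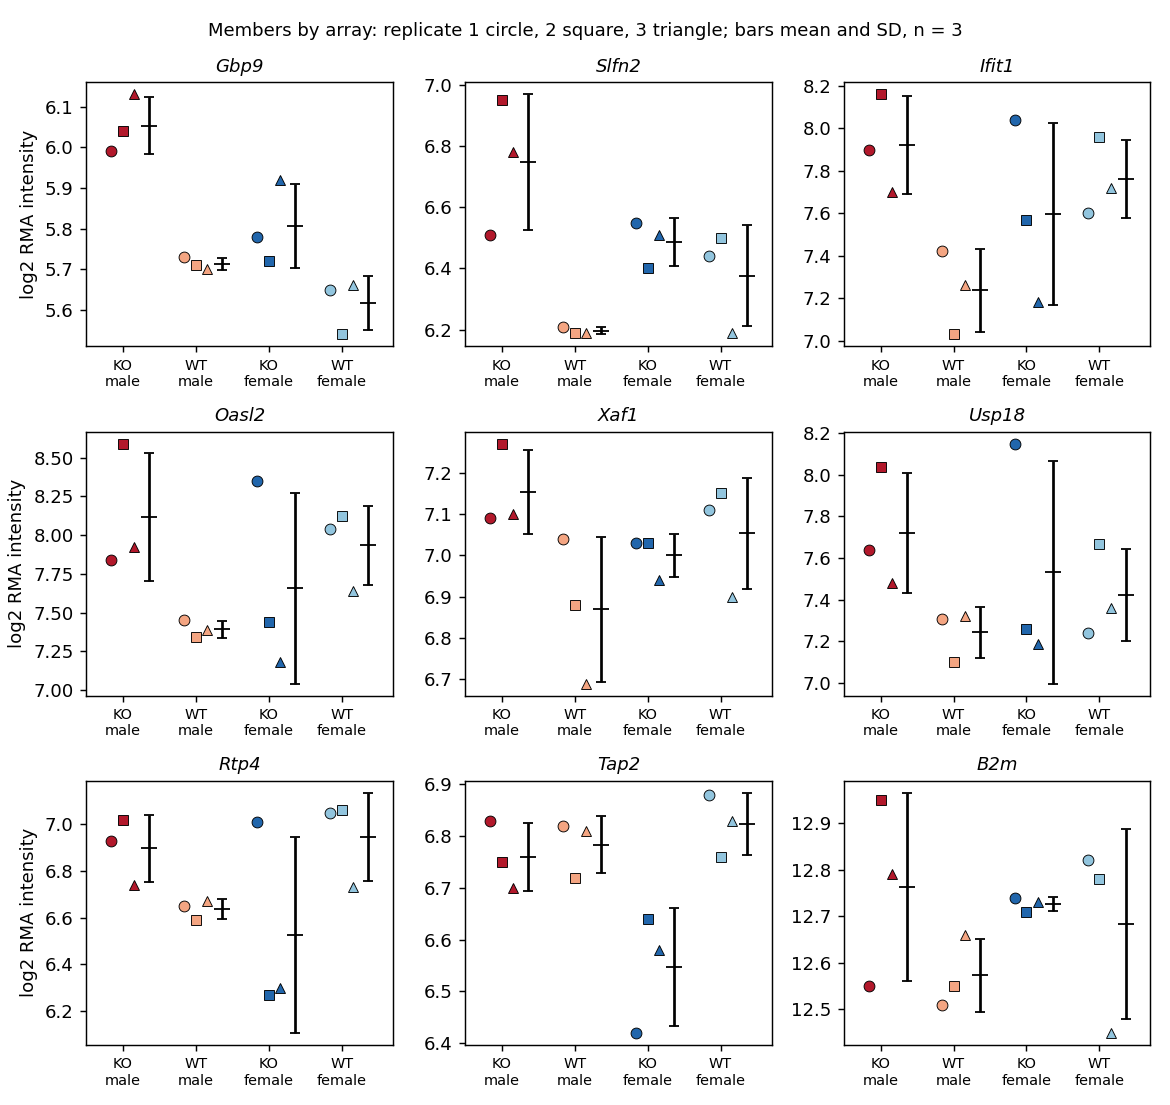
Log2 intensity of 9 of the genes in each of the 12 mice, by group; circles, squares and triangles are replicates 1, 2 and 3, and bars give the mean and SD of 3 mice. Scales differ between panels and do not start at 0. Gbp9 lies above wild type in every Ciz1-/- mouse of its sex, Oasl2 and Usp18 show 1 high Ciz1-/- female, and Tap2 lies below wild type in every Ciz1-/- female.

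Among 7 other interferon-stimulated genes all were higher in the mean in Ciz1-/- males, with a median of 0.26, and 2 of 7 in Ciz1-/- females, with a median of -0.13. Slfn2, a Schlafen family member needed for T cell quiescence in mice, read 6.51, 6.95 and 6.78 in Ciz1-/- males against 6.21, 6.19 and 6.19 in wild-type males. The wild-type males were nearly equal and the male groups did not overlap. The male difference of 0.55 (SE 0.11), a fold of 1.47, had an unadjusted p of 0.000305 and an adjusted p of 0.451 in limma. Slfn2 read 6.55, 6.40 and 6.51 in Ciz1-/- females against 6.44, 6.50 and 6.19 in wild-type females, overlapping groups with a difference of 0.11 (SE 0.11). Over both sexes it was 0.33 (SE 0.08), with an adjusted p of 0.267 in limma.

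Xaf1, which binds the apoptosis inhibitor XIAP, read 7.09, 7.27 and 7.10 in Ciz1-/- males against 7.04, 6.88 and 6.69 in wild-type males. The groups were separated by a narrow gap, and the difference of 0.29 (SE 0.10) had an unadjusted p of 0.0117 and an adjusted p of 0.874 in limma. It was 0.20 without wild-type male replicate 3 and 0.23 without Ciz1-/- male replicate 2, with unadjusted p of 0.0607 and 0.0527 in limma. Females read 7.03, 7.03 and 6.94 in Ciz1-/- mice against 7.11, 7.15 and 6.90 in wild type, a difference of -0.06.

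Rtp4, a receptor chaperone induced by interferon, had the widest difference in females. It read 7.01, 6.27 and 6.30 in Ciz1-/- females against 7.05, 7.06 and 6.73 in wild-type females, so that 2 Ciz1-/- females lay below all wild-type females and the third among them. The difference was -0.42 (SE 0.17), with an unadjusted p of 0.0308 and an adjusted p of 0.541 in limma, and -0.66 without Ciz1-/- female replicate 1. It was -0.29 and -0.30 without Ciz1-/- female replicates 2 and 3, with unadjusted p of 0.133 and 0.125 in limma. Males differed in the other direction, with 6.93, 7.02 and 6.74 in Ciz1-/- mice against 6.65, 6.59 and 6.67 in wild type, a difference of 0.26 (SE 0.17).

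Lgals3bp, a secreted glycoprotein that binds galectins, differed by 0.52 (SE 0.27) in males and -0.28 (SE 0.27) in females. A second row of the gene gave 0.29 and -0.11. Ifi27, a mitochondrial protein, differed by 0.17 and -0.27 (SE 0.26 each). Trim30a, a mouse ubiquitin ligase, differed by 0.24 (SE 0.14) and 0.03, and Parp14, an ADP-ribosyltransferase, by 0.18 (SE 0.10) and -0.13 (SE 0.10).

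Peptide processing and loading genes prepare cytosolic peptides for MHC class I. Psmb8 and Psmb9 encode catalytic subunits of the immunoproteasome, Tap1 and Tap2 together form the peptide transporter, Tapbp encodes the loading factor tapasin, and B2m encodes the light chain of class I molecules. Of these 6, 5 were higher in the mean in Ciz1-/- males, with a median of 0.10, and 3 in Ciz1-/- females, with a median of -0.03. Psmb9, Tap1, Psmb8 and Tap2 are consecutive protein-coding genes on chromosome 17.

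Tap2 read 6.42, 6.64 and 6.58 in Ciz1-/- females against 6.88, 6.76 and 6.83 in wild-type females, without overlap. The difference of -0.27 (SE 0.07) had an unadjusted p of 0.00247 and an adjusted p of 0.377 in limma. Males read 6.83, 6.75 and 6.70 in Ciz1-/- mice against 6.82, 6.72 and 6.81 in wild type, with a difference of -0.02 (SE 0.07), and the interaction was -0.25 (SE 0.10). Its partner Tap1 read 7.31, 7.54 and 7.41 in Ciz1-/- females against 7.31, 7.32 and 7.36 in wild-type females, and 7.50, 7.57 and 7.28 in Ciz1-/- males against 7.48, 7.11 and 7.26 in wild-type males. The groups of Tap1 overlapped in both sexes and the difference over both was 0.13 (SE 0.07), with an unadjusted p of 0.0948 in limma.

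B2m had the brightest row of the 36 genes. It read 12.55, 12.95 and 12.79 in Ciz1-/- males against 12.51, 12.55 and 12.66 in wild-type males, and 12.74, 12.71 and 12.73 in Ciz1-/- females against 12.82, 12.78 and 12.45 in wild-type females. The groups overlapped, with differences of 0.19 (SE 0.11) in males and 0.05 (SE 0.11) in females. Tapbp differed by 0.12 and -0.12 (SE 0.10 each), and its second row by 0.13 and -0.12. Psmb8 differed by 0.02 in males and -0.08 in females, and Psmb9 by 0.09 and 0.01.

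Many of the genes were highest in the same mouse of a group. Ciz1-/- male replicate 2 held the highest value of its group in 26 of the 36 genes and the lowest in 0, and Ciz1-/- female replicate 1 the highest in 29. Over all genes these arrays were highest in 32.9% and 34.7%. Ciz1-/- male replicate 2 also differed from the other Ciz1-/- males on markers of several cell types. It was above the 12-array mean for 10 of 10 choroid plexus, 5 of 5 Purkinje cell, 8 of 8 neutrophil and monocyte and 12 of 13 microglia markers. It was above that mean for 0 of 8 granule cell and 0 of 9 oligodendrocyte markers, beside 48.9% of all genes. In Ciz1-/- male replicates 1 and 3, 0 of the choroid plexus and 0 of the Purkinje cell markers were above it, and 7 of 8 granule cell markers in each. Microglia markers above it numbered 1 of 13 in replicate 1 but 10 of 13 in replicate 3. Neutrophil and monocyte markers numbered 5 of 8 and 3 of 8 in these replicates, and oligodendrocyte markers 9 of 9 and 6 of 9. The choroid plexus count was also 10 of 10 in wild-type male replicate 1, Ciz1-/- female replicate 2 and wild-type female replicate 2. The oligodendrocyte count was 0 of 9 in every Ciz1-/- female. Ciz1-/- female replicate 1 was above the mean for 0 of 10 choroid plexus and 11 of 13 microglia markers. The part of these cell types in the values of these arrays was not tested. Each gene's deviation from its 12-array mean was also taken, and its median over the 36 genes is the array's level. It was 0.00, 0.24 and 0.05 in Ciz1-/- males against -0.05, -0.16 and -0.08 in wild-type males, so that all 3 Ciz1-/- males were above all 3 wild-type males. It was 0.11, -0.07 and -0.14 in Ciz1-/- females against 0.09, 0.13 and -0.08 in wild-type females, where the groups overlapped.

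**Figure D3:**
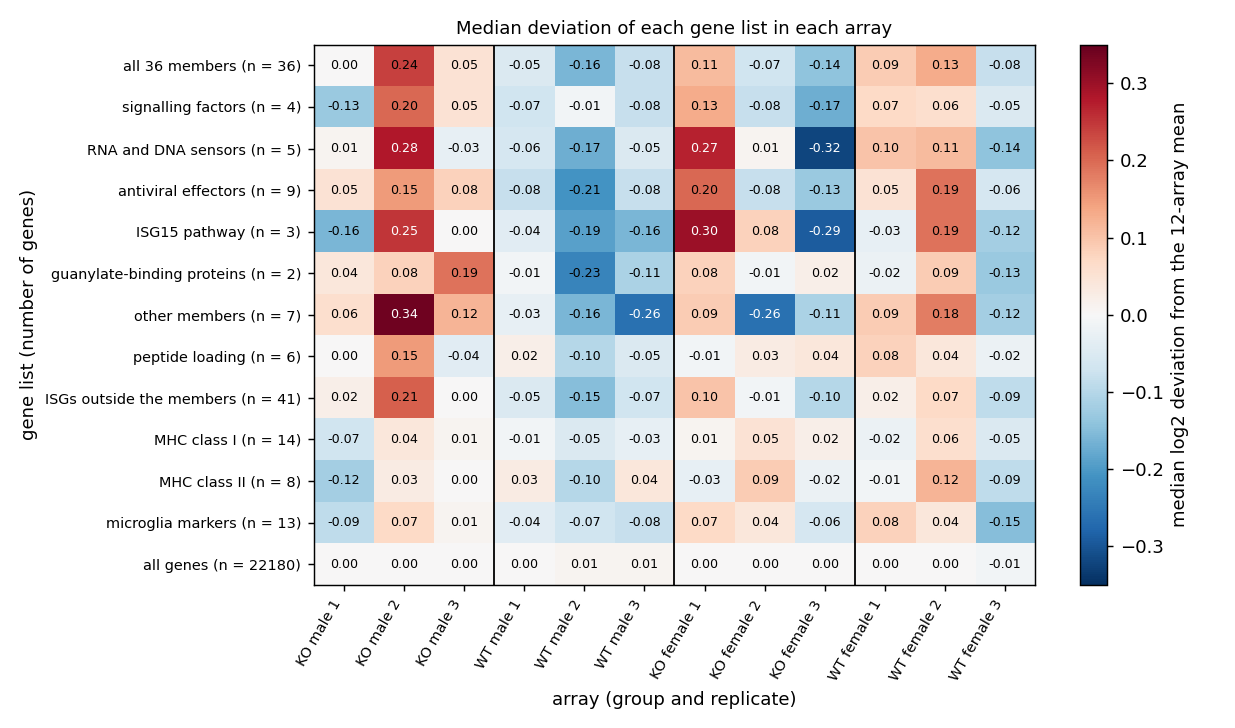
Median log2 deviation from the 12-array mean for the 36 genes, for each role, for related lists, for microglia markers and for all 22180 genes, in each mouse (columns). Ciz1-/- male 2 and Ciz1-/- female 1 are high over most roles, at 0.24 and 0.11 over all 36 genes, while all genes stay between -0.01 and 0.01.

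Spread within groups was wide for these genes. The median SD pooled over the 4 groups was 0.18 for the 36 genes and 0.11 for all genes, and 30 of the 36 lay above the value for all genes. Oasl2 and Lgals3bp had the largest, 0.39 each, followed by Ifi27 at 0.38, Ddx58 at 0.35 and Usp18 at 0.33. Samhd1 at 0.06 and Gbp9 at 0.07 had the smallest. The precision of every value is limited by 3 arrays a group.

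Females against males, averaged over genotype, gave no lean among the genes, but such an average can hide opposite differences within the genotypes. The array levels given above were -0.05, -0.16 and -0.08 in wild-type males against 0.09, 0.13 and -0.08 in wild-type females. In Ciz1-/- mice they were 0.00, 0.24 and 0.05 in males against 0.11, -0.07 and -0.14 in females. Sex was not tested within a genotype. The counts that follow are for the average. Of the 36, 18 were higher and 18 lower in females, with a median of 0.00, and none passed in limma, where the smallest adjusted p was 0.503 and 0.0361% of all genes were called. At an unadjusted p under 0.05, Psmb9 was higher in females by 0.12, beside 3.75% of all genes, and Gbp9 lower by a difference of -0.17, beside 4.18%.

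The rest of the pathway was read from lists outside the 36 genes, also chosen with earlier results of these data known. Of 44 other interferon-stimulated genes 41 were measured, and 36 of them were higher in Ciz1-/- males and 5 lower, with a median of 0.17. In females 18 were higher and 23 lower, with a median of -0.01. None passed in limma in either sex, and 10 of the 41 were higher at an unadjusted p under 0.05 in males, beside 2.62% of all genes. In females 1 of the 41 was lower at that p, beside 3.98% of all genes. The 10 included Irgm1, an immunity-related GTPase. Irgm1 read 5.48, 5.81 and 5.22 in Ciz1-/- males against 4.98, 4.80 and 5.21 in wild-type males, a difference of 0.51 (SE 0.15). These groups did not overlap, beside 4.66% of all genes, but the gap between 5.22 and 5.21 was very narrow. The row was dim, averaging 5.22. Mx2, a relative of Mx1, differed by 0.32 (SE 0.11) in males. Uba7, the enzyme that activates Isg15, differed by 0.26 (SE 0.08) in males and by 0.20 (SE 0.06) over both sexes, where its adjusted p was 0.351 in limma. Oas2, which makes the activator of RNase L, and Lgals9, a galectin, differed by 0.22 (SE 0.08) and 0.18 (SE 0.06) over both sexes, each with an adjusted p of 0.462 in limma.

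Upstream of interferon the differences were smaller. Of 15 sensing genes measured, 12 were higher in Ciz1-/- males, with a median of 0.05, and 7 in Ciz1-/- females, with a median of 0.00. Irf3, the factor that sensors activate to start interferon transcription, differed by 0.15 (SE 0.06) over both sexes, Adar, which edits double-stranded RNA and so hides self RNA from Ifih1, by -0.13 (SE 0.05), and Tlr7, an endosomal RNA receptor, by 0.12 (SE 0.06). In males Ikbke, a kinase that acts on Irf3, differed by -0.10. Of 17 interferons, receptors and kinases, 9 were higher in Ciz1-/- males and 9 in Ciz1-/- females. Over both sexes Ifnar2, Ifng and Stat3 differed by 0.08, 0.07 and -0.04, and in males Socs3, Ifnar1 and Ifne by 0.23, -0.11 and -0.11. The rows of Ifng and Ifne were dim, averaging 5.71 and 5.59, while the mean of all genes was 7.03 to 7.04 an array. Whether these interferons were expressed cannot be read from such values. None of these lists had a gene past an adjusted p of 0.05 in limma, and 2 of the 15 sensing genes (13.3%) and 0 of the 17 were at an unadjusted p under 0.05 over both sexes, beside 9.26% of all genes.

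Class I heavy chains, further genes of class I peptide processing and loading, and class II genes were read as 2 more lists. Of 14 class I pathway genes, 5 of them H2 genes, 7 were higher in Ciz1-/- males and 8 in Ciz1-/- females, with medians of 0.00 and 0.02. Calr and Pdia3, endoplasmic reticulum chaperones of class I assembly that also serve other proteins, differed by 0.13 (SE 0.04) and 0.14 (SE 0.06) over both sexes, and Canx, another such chaperone, by -0.04. In males Psme2, H2-T23 and H2-K1 differed by -0.16, 0.16 and 0.11. Of 8 class II genes 4 were higher in Ciz1-/- males and 3 in Ciz1-/- females. Ciita, the activator of class II transcription, differed by -0.18 (SE 0.07) over both sexes and -0.14 in males. H2-Oa and Ctss differed by 0.04 and -0.04 over both sexes, and H2-DMa and H2-Oa by 0.13 and 0.07 in males. None passed an adjusted p of 0.05 in limma, and 2 of 14 class I pathway genes and 1 of 8 class II genes were at an unadjusted p under 0.05 over both sexes, shares of 14.3% and 12.5% beside 9.26% of all genes.

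**Figure D4:**
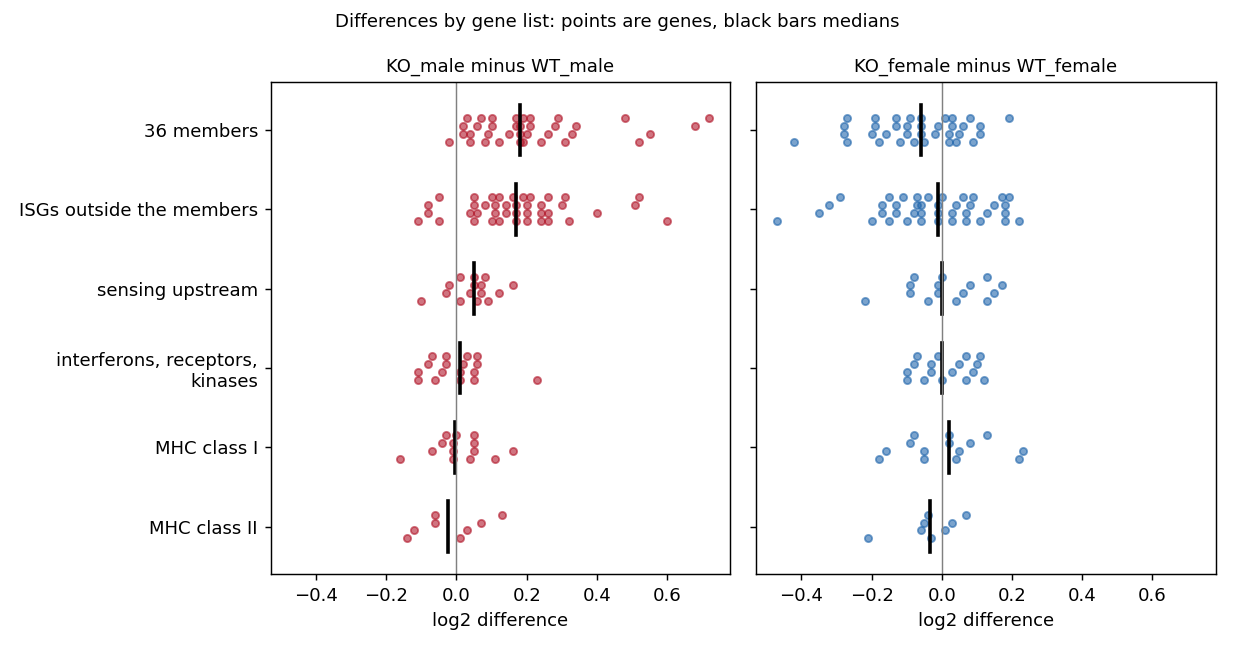
Log2 differences, Ciz1-/- minus wild type, of each gene (points) with the median (black bar) for the 36 genes and 5 related lists, in males (left) and females (right). Medians in males are 0.18 for the 36 genes and 0.17 for other interferon-stimulated genes, against 0.00 for MHC class I.

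Markers of immune cells were set beside these values, since in whole tissue fewer cells of a type and less RNA per cell cannot be told apart. Microglia markers were higher in Ciz1-/- males for 12 of 13 genes, with a median of 0.09, and in Ciz1-/- females for 10 of 13, with a median of 0.04. Among them Cx3cr1, C1qb and Fcrls differed in males by 0.17, 0.30 and 0.24, at unadjusted p under 0.05 in limma. That is 23.1% of the 13, beside 5.42% of all genes. Aif1 differed by -0.20 in males, with an unadjusted p of 0.059 in limma. In females Tmem119 differed by -0.23 (SE 0.07) between groups that did not overlap. It was the only microglia marker at an unadjusted p under 0.05 there, 7.69% of the 13 beside 8.49% of all genes. Cx3cr1 also lay below wild type in every Ciz1-/- female, with a difference of -0.11, and Fcrls lay above it in every one, with a difference of 0.17. Over all genes 7.41% lay below and 7.46% above in this way. None passed an adjusted p of 0.05 in limma. The mean level over the list was 7.26 to 7.47 in Ciz1-/- males against 7.26 to 7.29 in wild-type males, and 7.30 to 7.42 in Ciz1-/- females against 7.24 to 7.43 in wild-type females. With this level as a covariate, 28 of the 36 genes were higher in Ciz1-/- males, with a median of 0.07, and 3 were at an unadjusted p under 0.05. The share of all genes at that p in this fit is not given here. Over both sexes 17 of the 36 genes were then higher, with a median of 0.00. In the same fit the male difference was 0.54 for Ifit1, 0.41 for Slfn2, 0.37 for Oasl2 and 0.35 for Gbp9.

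Neutrophil and monocyte markers were higher in Ciz1-/- males for 7 of 8 genes, with a median of 0.16, and their mean level was 5.66 to 5.90 in Ciz1-/- males against 5.54 to 5.64 in wild-type males. In females 4 of 8 were higher. S100a8, a marker of this list, averaged 4.57 in Ciz1-/- males and 4.25 in wild-type males. Its row was dim, averaging 4.40, and the male groups overlapped. S100a8 and Ly6c2 were higher in males at an unadjusted p under 0.05 in limma. That is 25% of the 8, beside 5.42% of all genes, and none of the 8 passed an adjusted p of 0.05 there. Lymphocyte markers were higher in Ciz1-/- males for 4 of 9 genes, with a median of -0.04 and mean levels of 5.53 to 5.68 in Ciz1-/- males against 5.51 to 5.67 in wild-type males. Cd3e of T cells averaged 5.92 in Ciz1-/- males and 5.79 in wild-type males, and Cd79a of B cells 5.53 in Ciz1-/- males and 5.57 in wild-type males. Nkg7, with a difference of -0.16, was the only lymphocyte marker at an unadjusted p under 0.05 in males in limma. That is 11.1% of the 9, beside 5.42% of all genes. Male groups did not overlap for Nkg7 on the lower side, beside 5.64% of all genes. They did not overlap for Cd3d and Cd4 on the higher side, beside 4.66%. In females 4 of 9 lymphocyte markers were higher, with a median of -0.02. Cd3e was higher there by 0.19 (SE 0.08) between groups that did not overlap, beside 7.46% of all genes. It was the only lymphocyte marker at an unadjusted p under 0.05 in females in limma, 11.1% of the 9 beside 8.49% of all genes. No red blood cell marker of 5 listed was measured, and the array gives no true zero, so absence of a cell type cannot be read from it. The part of neutrophils, monocytes and lymphocytes in the differences was not tested.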

How the data were processed

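Per the labels, the authors made the values by RMA in Expression Console, summarised over core exons. The submitters' processing notes name Affymetrix Expression Console and version 3.0 of Transcriptome Analysis Console. The deposited table holds linear normalised intensity, with a median per array between 96.5 and 98.7, and was converted here to log2 without a pseudocount. Background correction and summarising over exons by the authors can compress differences of dim genes. The build of the array annotation is not given in the sources used here.

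Of 41345 rows, 23521 carried 1 gene symbol in the platform annotation, 1814 several and 16010 none. Rows with 1 symbol were kept, and the brightest row stood for each of 1082 genes with several, which left 22180 genes and no filter on brightness. The tests used limma 3.58.1 in R 4.3.3, with a mean for each of 4 groups over all 12 arrays, eBayes, two-sided p-values and Benjamini-Hochberg adjustment over all genes at 0.05. The fit was tested on simulated data. SE are moderated limma errors. The genes and the lists were chosen with earlier results of these data known, and no list has a p of its own.

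Values for every array were given for the 5 genes with the smallest unadjusted p in each direction in males, the 5 over both sexes, the 3 in females and the 3 brightest. Only Tap2 was lower in males. Ddx58, Rsad2, Usp18 and the array values of Irgm1 were added after their values were seen. In each related list the 3 genes with the smallest unadjusted p over both sexes and in males were named. Alternatives were an intensity trend, genes above the median brightness, the mean of all rows, array weights, quantile normalization, choroid plexus or microglia level as a covariate, the arrays of 1 sex, and leaving out each array.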

Additional observations from a re-analysis of the deposited data

Results flagged for a closer look

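Among 72 sets of 6 arrays (36 genes in the 6 Ciz1-/- and the 6 wild-type mice), 2 held an array far from the rest by Dixon's test at the 95% level, and chance flags about 1 in 20 such sets. Ifit3 read 8.67 in Ciz1-/- male replicate 3, while the other Ciz1-/- mice lay between 8.27 and 8.38. Cmpk2 read 8.54 in wild-type female replicate 1, while the other wild-type mice lay between 8.27 and 8.36.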

How the results depend on the processing

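No gene of the 36 passed an adjusted p of 0.05 in limma under any alternative listed here. Counts under an alternative, here and above, are given without the share of all genes in the same fit. That share can change too, so a changed count is not by itself a change in these genes. At an unadjusted p under 0.05 the male count of 5 was 8 with an intensity trend, 3 with the microglia covariate, 10 with only male arrays and 3 to 9 when 1 array was left out. It was 9, 3 and 8 without Ciz1-/- male replicates 1, 2 and 3, 8 without Ciz1-/- female replicate 1 and 8 without wild-type male replicate 1. The count over both sexes, 3, was 5 with the choroid plexus covariate and 3 to 7 with 1 array left out. The female count, 3, was 5 with the microglia covariate and 1 to 8 with 1 array left out. Both counts were 0 above the median brightness, where Gbp9, Slfn2, Tap2 and Rtp4 were too dim to be included. That alternative therefore did not retest these calls. Only 17 of the 36 genes lay above the median brightness, of which 17 were higher in Ciz1-/- males, 6 in Ciz1-/- females and 14 over both sexes. With 1 array left out, the genes higher in Ciz1-/- mice numbered 29 to 35 in males, 5 to 20 in females and 19 to 34 over both sexes, and 17 over both with the microglia covariate. Tap2 in males, -0.02, was 0.00 with the microglia covariate and -0.06 to 0.01 with 1 array left out. With 1 array left out, the median difference ran from 0.115 to 0.212 in males, -0.161 to 0.01 in females and 0.003 to 0.087 over both sexes. Over all alternatives 264 recomputed single-gene differences kept their sign and 2 did not. The unadjusted p in limma passed 0.05 under some alternative for Xaf1 and Oasl2 in males, reaching 0.0648 and 0.117, and for Gbp9 and Rtp4 in females, reaching 0.0826 and 0.133. The causes were not tested. No paired analysis was possible because the labels give no shared replicate numbers.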
